A study of Arabidopsis thaliana with 625 samples.

Results

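The 10 genes described here encode brakes of the plant cell cycle in Arabidopsis thaliana. They are the cyclin-dependent kinase (CDK) inhibitors SIM (AT5G04470), SMR1 (AT3G10525, also called LGO), SMR4 (AT5G02220), SMR5 (AT1G07500), KRP1 (AT2G23430), KRP2 (AT3G50630), KRP3 (AT5G48820) and KRP4 (AT2G32710), and the endocycle switches CCS52A1 (AT4G22910) and CCS52A2 (AT4G11920). They were chosen by identifier, by a rule that uses no measured value, though earlier results of these data were known at the time. All 10 were found among the 32833 genes of the 2 single-cell expression tables.

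CDKs bound to cyclins drive DNA replication and mitosis. SIM, SMR and KRP proteins bind CDK complexes and inhibit them, while CCS52A proteins activate the anaphase-promoting complex (APC/C), the ubiquitin ligase that removes mitotic cyclins. A cell that keeps replicating its DNA but loses mitotic CDK activity enters the endocycle and becomes large and polyploid, as trichomes and many pavement cells of the leaf epidermis do. Cells of the stomatal lineage take another course: SPCH starts asymmetric divisions, MUTE drives the last symmetric division, and FAMA ends division as guard cells form.

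Every sample analysed here was 1 cell sorted from the aerial tissue of seedlings at 10 days post-germination and sequenced by Smart-seq2, a full-length single-cell method. The plants carried 1 of 2 fluorescent reporters, and the labels name no mutation or treatment. ATML1p::YFP-RCI2A places a membrane-bound YFP under the promoter of the epidermal regulator ATML1 and gave 143 cells (42 in pool 1 and 101 in pool 2, on 5 plates). TMMp::TMM-YFP places a YFP fusion of the stomatal-lineage receptor TMM under its own promoter and gave 478 cells (142 in pool 1 and 336 in pool 2, on 7 plates). A plate is the plate name in a cell's library label, each plate held 1 reporter line, and plate and line therefore cannot be told apart. Nothing in the labels says that pools or plates came from separate plants, so the p-values may measure technical spread alone.

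Levels are in TPM, a unit scaled for transcript length and to a fixed total per cell, so that levels can be compared between genes, and it keeps no record of read depth. A transcript is called detected in a cell at a TPM of at least 1. ATML1p cells had a median of 3179 detected genes (range 377 to 9460) and TMMp cells 2777 (384 to 10726). The receptor transcript TMM, which the TMMp transgene also encodes, was found in 90.2% of the cells sorted by that reporter and in 11.9% of those sorted by ATML1p, and YFP in 86% and 62.9%. PDF1, an epidermal gene, was present in 58.2% of the TMMp set but in 10.5% of the ATML1p set. In 42 of the 143 ATML1p cells and 5 of the 478 TMMp cells, 21 photosynthesis genes summed to at least 20000 TPM. PDF1 was thus listed at 0 in most ATML1p cells, and the lines are named here by their reporters and not by a cell type. Fewer cells of a type and less RNA per cell cannot be told apart in a mean over cells.

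The inhibitors were found in few cells. At least 1 of the 10 was detected in 36.4% of ATML1p cells and 39.7% of TMMp cells, and 288 of the 478 TMMp cells had none. Another 132 TMMp cells had 1 of them, 44 had 2, 11 had 3, 2 had 4 and 1 had 5. Where a transcript was present, it was usually far above the detection threshold: in TMMp cells that had it, the median level ran from 22.6 TPM for KRP1 to 325 TPM for SMR5.

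Among the SIM and SMR genes, SMR5, which is induced by DNA damage and reactive oxygen, had the highest level of the 10. Its mean was 35.2 ± 4.87 TPM in TMMp cells and 49.1 ± 2.64 TPM in ATML1p cells (SD, n = 2 pools each). SMR4, an inhibitor that slows the cell cycle in the stomatal lineage, averaged 5.31 ± 2.84 TPM in TMMp cells and 5.75 ± 0.332 TPM in ATML1p cells. SMR1, which promotes endoreduplication in the epidermis and is needed for the giant cells of sepals, averaged 4.77 ± 0.739 TPM in TMMp cells and 0.944 ± 0.722 TPM in ATML1p cells. SIM, which keeps trichomes from dividing, was close to the limit of detection, with 4 positive TMMp cells and 1 positive ATML1p cell. The trichome regulators GL1, GL2 and GL3 were each detected in at most 3 of the 478 TMMp cells and are thus at or near 0. This does not hold for the whole list of 10 trichome markers. The mean number of them detected per cell ran from 0.185 in the POLAR class to 0.571 in the MUTE or EPF1 class of TMMp cells (classes defined below).

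Of the KRP genes, KRP4 was the most widely detected member in either line. It is known in the shoot meristem as an inhibitor that stays on chromatin and links cell size to entry into S phase. Its transcript was present in 71 of the 478 cells of TMMp (14.9%) and in 24 of the 143 of ATML1p (16.8%), at mean levels of 10.7 ± 0.465 and 8.73 ± 3.54 TPM (SD, n = 2 pools). KRP1 averaged 3.22 ± 0.983 TPM in TMMp cells, KRP3 2.25 ± 0.569 TPM and KRP2 1.22 ± 0.861 TPM. KRP2, a CDK inhibitor that favours the endocycle at a modest dose in leaves, was detected in 6 TMMp cells, and KRP3 in 10.

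The APC/C activators were expressed at levels like those of SMR4. CCS52A1, which promotes endoreduplication in leaf cells and trichomes, averaged 6.73 ± 2.96 TPM in TMMp cells. CCS52A2, its close relative known for the root meristem, averaged 4.88 ± 1.76 TPM. In the order of mean levels in TMMp cells, SMR5 and KRP4 stood above the rest by more than the SD over pools. The next 4, CCS52A1, SMR4, CCS52A2 and SMR1, differed from the neighbouring genes within these 4 by no more than it.

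The comparison of the 2 reporter lines asked whether the brakes were set differently in cells sorted by the stomatal-lineage reporter and by the epidermal reporter. None of the members passed the test for a difference in level. The fit, limma over 18686 genes on the log2(mean TPM + 1) of the 4 pools, called 494 genes (2.64% of those tested) at a Benjamini-Hochberg adjusted p of 0.05, and 3699 at an unadjusted p of 0.05. SIM and KRP2 were too low to be tested, and 0 of the other 8 was called, nor had any of them an unadjusted p under 0.05. SMR1 had the largest difference, 1.61 higher in TMMp cells on the log2 scale (SE 0.79, adjusted p = 0.295 by limma). KRP1 was higher by 1.46 (SE 0.84, adjusted p = 0.363) and SMR5 differed by -0.47 (SE 0.38, adjusted p = 0.502).

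Shares of cells gave the same picture. In ATML1p cells SMR5 was detected in 9.09%, 10%, 13.2%, 16% and 17.6% of the cells of the 5 plates. On the 7 TMMp plates its share ran from 4.76% to 15.1% with a median of 7.25%, so the plates of the lines overlapped. A 2-sided exact permutation test over all splits of the plates gave an adjusted p of 0.252 for SMR5, and it called 0 of the 7 members common enough to be tested, with 0 at an unadjusted p of 0.05. The same test called 1414 of 16917 genes (8.36%). The photosynthesis-high ATML1p cells had SMR1 in 0 of 42 cells, KRP4 in 9 and SMR5 in 4, against 5, 15 and 14 of the other 101. Their part in the line values was not tested cell by cell, but leaving these cells out called 0 members as well.

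**Figure D1:**
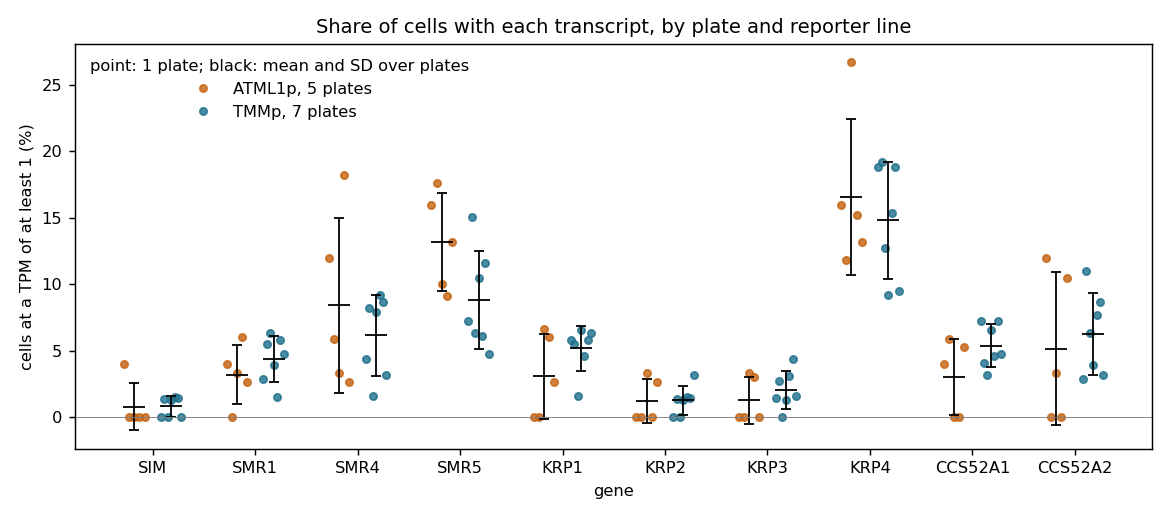
Share of cells (percent) with each of the 10 transcripts at a TPM of at least 1; each point is 1 plate, orange for the 5 ATML1p plates and blue for the 7 TMMp plates, with the mean and SD over plates in black (an SD bar can pass below 0). The plates of the lines overlap for every gene, KRP4 and SMR5 lie highest, and SIM, KRP2 and KRP3 lie near 0.

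To follow the members along the lineage, the TMMp cells were placed in classes by the first detected gene in a fixed order: FAMA (55 cells), the guard cell gene MYB60 (47), MUTE or EPF1 (28), SPCH (45), the asymmetric-division polarity gene POLAR (54), PDF1 (103), and none of these (146). The classes differed in the number of detected genes, from a median of 2108.5 in the class with none of them and 2560 in the PDF1 class to 4285 in MYB60 and 4308 in FAMA cells, and the part of this difference in the shares below was not tested apart from one repeat on cells with at least 2000 genes. A class is named by the gene detected and not by a cell type. In MYB60 cells the summed level of 11 late guard cell genes had a median of 0 TPM, against 69.6 TPM in FAMA cells. Of the 47 MYB60 cells, 30 were S phase cells as defined below. Levels were compared by limma with plate as a block, on the log2(mean TPM + 1) of each class on each plate, over 17961 genes. In simulated data with no difference that fit made false calls where a class held few cells. "Rose" and "fell" are therefore used below only where a second fit also passed, the mean of log2(TPM + 1) over cells weighted by the number of cells, which was added after the data had been seen.

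SMR1 rose in the cells with none of the stage genes and was not found in the MUTE or EPF1, FAMA and MYB60 classes of the TMMp line. It was detected in 18 of the 249 cells of the PDF1 and no-stage-gene classes together (7.23%, exact 95% binomial interval 4.34 to 11.2%, which covers counting error only). In the 83 MUTE or EPF1 and FAMA cells it was detected in 0, which allows a share of up to 3.61%, and in 0 of 47 MYB60 cells, which allows up to 6.38%. Here and below the limit of a count of 0 is set at 3 cells of the total, and the upper ends of the exact 95% intervals are 4.35% and 7.55%. In the ATML1p line, where classes were not tested, SMR1 was in 1 of 4 MYB60 cells, 0 of 17 FAMA cells and 0 of 3 MUTE or EPF1 cells. The mean SMR1 level of the cells with none of the stage genes was 18.1, 11, 17.7, 0, 3.99, 10.6 and 7.98 TPM on the plates TMM-1, TMM-2, TMM3, TMM4, TMM5, TMM6 and TMM7. It was thus above 0 on 6 of the 7 plates, and on TMM4 it appeared instead in 2 SPCH cells and 1 PDF1 cell.

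The log2 difference of SMR1 between this class and the mean of the other classes was 2.51 (SE 0.51, adjusted p = 0.000401 by limma), and 0.31 (SE 0.09, adjusted p = 0.00554) in the second fit. All genes tested had a median difference of -0.27 in this contrast, where 11.4% were called and 4.09% were higher in both fits. SMR1 stayed above the threshold when any 1 of the 7 plates was left out, with differences of 2.25 to 3.14. Without pool 1 or pool 2 the first fit kept it (adjusted p = 0.0381 and 0.0223), but the second fit lost it without pool 1 (adjusted p = 0.107, and 0.0383 without pool 2). SMR1-positive cells had a median of 2449 detected genes against 2802 in SMR1-negative cells, and among cells with at least 2000 genes SMR1 was found in 6 of 78 cells of the class (7.69%) and 9 of 84 PDF1 cells (10.7%). The part of depth in the result was not tested further. In PDF1 cells the difference was 1.31 (SE 0.51, adjusted p = 0.316), which did not pass. There the second fit gave 0.31 (SE 0.11, adjusted p = 0.0524), just short of the threshold and equal to its difference in the class with none of the genes. SMR1 was in 8.74% of PDF1 cells and in 6.16% of the cells with none of the genes, so its detection was not particular to the latter.

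SMR1-positive cells also carried fewer cycle transcripts, a mean of 1.1 of the 18 S phase genes against 2.43 in the other cells. Of the 20 G2 and M phase genes they carried a mean of 0.524 against 1.06. Of 8 vasculature markers they had a mean of 0.19 against 0.0503, of 10 trichome markers 0.0952 against 0.354 and of 21 photosynthesis genes 7.05 against 8.1. The part of these in the SMR1 result was not tested, except that without the photosynthesis-high cells, 2 of which had SMR1, the difference was 2.4 with an adjusted p of 0.000312.

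KRP1, which can block both division and the endocycle according to its dose, rose in SPCH cells. It was detected in 8 of 45 SPCH cells (17.8%), 5 of 47 MYB60 cells (10.6%), 4 of 54 POLAR cells (7.41%), 3 of 55 FAMA cells (5.45%), 2 of 103 PDF1 cells and 3 of 146 cells with none of the genes. In the 28 MUTE or EPF1 cells it was found in 0, which allows up to 10.7% (exact upper limit 12.3%). Its mean level in SPCH cells by plate was 0, 18, 1.65, 4.47, 0.652, 3.79 and 150 TPM in the same plate order. One plate, TMM7, stood far above the others, and there 1 cell reached 655 TPM.

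The KRP1 difference in SPCH cells was 2.06 (SE 0.61, adjusted p = 0.0362), and 0.71 (SE 0.21, adjusted p = 0.0209) in the second fit, in a contrast where 4.48% of all genes were called and 2.78% were higher in both fits. The call rested on single plates. Without TMM7 the difference was 1.27 with an adjusted p of 0.238, and leaving out TMM-2, TMM3, TMM4 or TMM6 gave adjusted p-values of 0.195, 0.0796, 0.0663 and 0.0552. Without pool 1 or pool 2 the adjusted p was 0.129 and 0.614, and in the second fit it was 0.0564 when only cells with at least 2000 genes were used. Against SPCH cells directly, KRP1 differed by -0.76 in FAMA cells (SE 0.26, adjusted p = 0.0377) and by -0.82 in PDF1 cells (SE 0.23, adjusted p = 0.0113) in the second fit, but the first fit passed in neither (adjusted p = 0.055 and 0.122). The second fit called 14.3% and 14.4% of all genes in these contrasts and the first fit 7.59% and 2.78%.

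KRP4 was found most often in the FAMA, MYB60, SPCH and MUTE or EPF1 classes and fell in the cells with none of the genes. Its share was 34.5% in FAMA cells (19 of 55), 31.9% in MYB60 cells (15 of 47), 26.7% in SPCH cells (12 of 45) and 21.4% in MUTE or EPF1 cells (6 of 28). It was 11.1% in POLAR cells, 7.77% in PDF1 cells and 3.42% in the cells with none of the genes. Over plates the share was 39.2 ± 25% in FAMA, 33.2 ± 15.6% in MYB60, 26.2 ± 23.1% in SPCH, 25 ± 12.9% in MUTE or EPF1, 10 ± 7% in POLAR, 7.45 ± 7.6% in PDF1 cells and 3.55 ± 3.84% in those with none of the genes (SD, n = 7 plates, and n = 6 for MUTE or EPF1). Neighbours in this order thus differed by no more than the larger SD, except MUTE or EPF1 and POLAR cells. In FAMA cells the mean level was 30.3, 22.3, 10.5, 8.38, 78.5, 32.4 and 8.33 TPM by plate, always above 0, and in the cells with none of the genes it was 0, 0, 12.1, 0, 0.604, 1.22 and 0.275 TPM. Those 2 series overlapped only through plate TMM3 in the latter.

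In the class with none of the genes the KRP4 difference was -2.44 (SE 0.77, adjusted p = 0.0278), and -1.15 (SE 0.25, adjusted p = 0.000129) in the second fit, where 6.4% of all genes were lower in both fits. KRP4-positive cells had a median of 4421 detected genes against 2616 in the others, and among cells with at least 2000 genes KRP4 was found in 3 of 78 cells of this class (3.85%) and 19 of 55 FAMA cells (34.5%). The first fit lost the call without TMM-1, TMM-2, TMM4, TMM5 or TMM6 (adjusted p = 0.11, 0.067, 0.0727, 0.0579 and 0.0892), and without pool 1 or pool 2 (adjusted p = 0.244 and 0.25). The second fit kept it without pool 1 (-1.04, SE 0.3, adjusted p = 0.0118) and without pool 2 (-1.46, SE 0.35, adjusted p = 0.0265). In FAMA cells KRP4 was higher by 1.72 (SE 0.77, adjusted p = 0.141), which did not pass, and by 1.08 (SE 0.36, adjusted p = 0.0178) in the second fit, in a contrast where the fits called 13.1% and 25.7% of all genes.

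**Figure D2:**
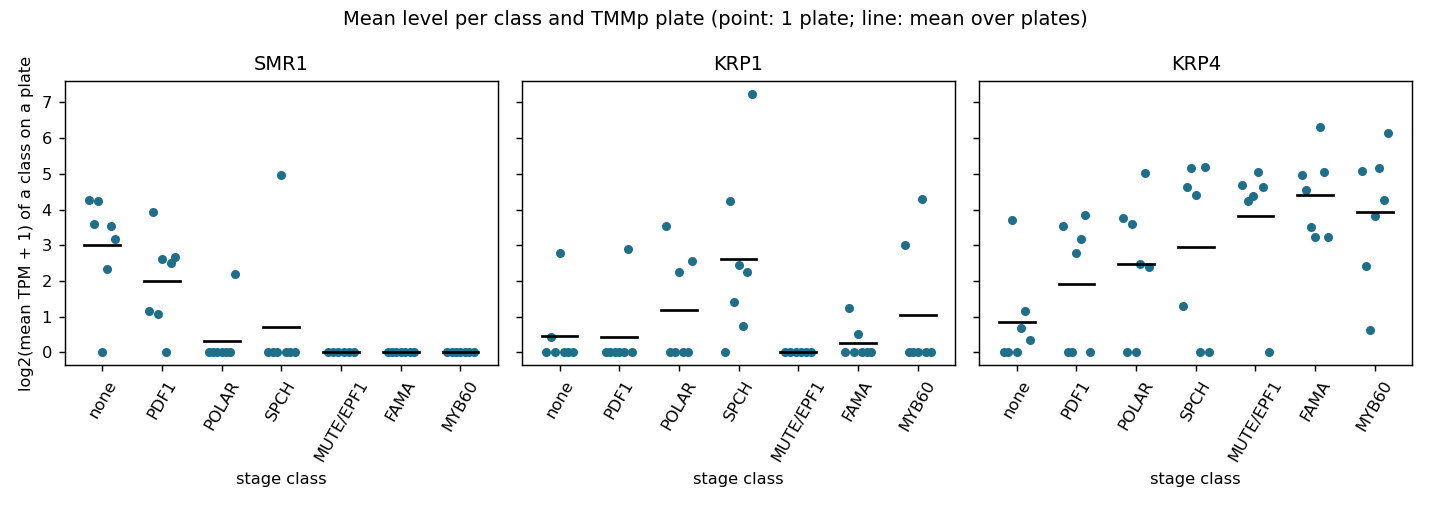
Mean level of SMR1, KRP1 and KRP4 per stage class, as log2(mean TPM + 1) with classes of at least 3 cells on a plate; each point is 1 TMMp plate and the line is the mean over plates. SMR1 is at 0 on every plate in the MUTE or EPF1, FAMA and MYB60 classes, the highest KRP1 point is the SPCH class of 1 plate, and KRP4 is above 0 on all 7 plates in the FAMA and MYB60 classes.

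The other members gave no call in both fits at any stage, over the 9 that could be tested (SIM could not). By limma 0 members were called in MUTE or EPF1, MYB60, POLAR and PDF1 cells, where 1.23%, 0.1%, 0.039% and 0.323% of all genes were, and 0, 0, 0 and 1 member had an unadjusted p under 0.05. In MUTE or EPF1 against SPCH cells 0 members and 1.31% of all genes were called, with 1 member at an unadjusted p of 0.05. SMR4 was detected in 24 of the 175 SPCH, MUTE or EPF1, FAMA and MYB60 cells (13.7%, interval 8.99 to 19.7%) and in 5 of the 249 PDF1 and no-stage-gene cells (2.01%, interval 0.655 to 4.62%). Its level in the class with none of the genes differed by -0.63 (SE 0.71, adjusted p = 0.619), and by -0.38 (SE 0.15, adjusted p = 0.0353) in the second fit, which called 48.1% of all genes in that class. SMR4-positive cells had a median of 4772 detected genes against 2684.5 in the others, and the part of depth in its share was not tested.

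CCS52A1 was detected in 10 of 55 FAMA cells (18.2%), 5 of 45 SPCH cells (11.1%), 3 of 28 MUTE or EPF1 cells (10.7%) and 1 of 47 MYB60 cells (2.13%). Its mean level in FAMA cells was 9.96, 11.4, 19.9, 40.5, 0, 7.31 and 15.8 TPM by plate, above 0 on 6 of 7. There it was higher than in the other classes by 2.17 (SE 0.84, adjusted p = 0.0791), short of the threshold. The difference was 0.81 (SE 0.22, adjusted p = 0.00342) in the second fit, which called 25.7% of all genes in this contrast. CCS52A1-positive cells had a median of 3833 detected genes against 2721.5 in the others, and the part of depth was not tested. CCS52A2 and SMR5 showed no such order of classes: CCS52A2 was in 3.57 to 10.9% and SMR5 in 6.8 to 13.3% of the cells of every class. KRP2 and KRP3 were detected in 0 of the 55 FAMA cells, which allows up to 5.45% (exact upper limit 6.49%), and in 0 of the 146 cells with none of the genes.

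**Figure D3:**
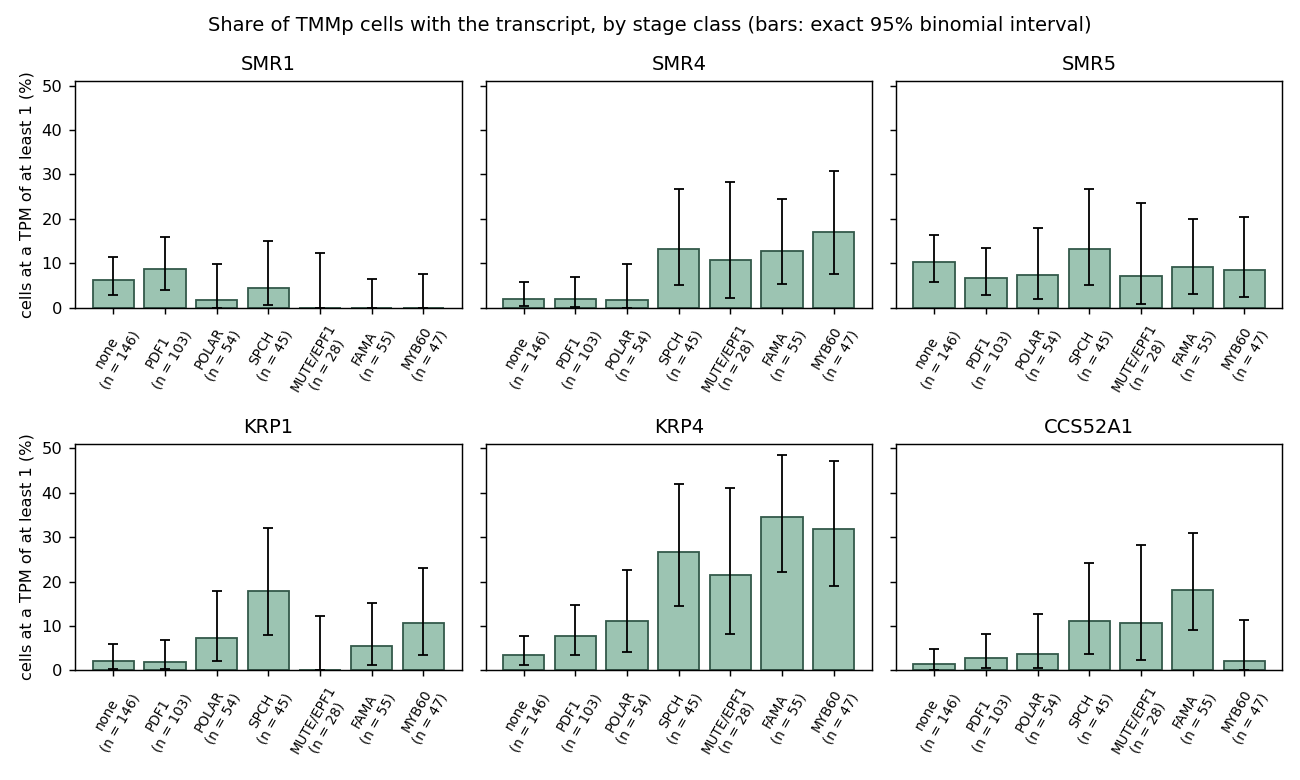
Share of TMMp cells (percent) with SMR1, SMR4, SMR5, KRP1, KRP4 and CCS52A1 at a TPM of at least 1, by stage class, with the number of cells under each bar and exact 95% binomial intervals. SMR1 is highest in PDF1 cells (8.74%), SMR4 and KRP4 are highest in the SPCH to MYB60 classes, KRP1 is highest in SPCH cells (17.8%), CCS52A1 in FAMA cells (18.2%), and SMR5 is between 6.8 and 13.3% throughout.

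A second comparison set the TMMp cells apart by cell cycle transcripts. S phase cells had at least 3 of 18 replication genes (138 cells), mitotic cells had the B-type kinase CDKB1;1 or the cyclin CYCB1;1 and fewer than 3 replication genes (38 cells), and the other 302 cells had neither. Median numbers of detected genes were 3657.5, 4174 and 2384. FAMA cells made up 16 of the 38 mitotic cells, and cells with none of the stage genes 129 of the 302 others. The 138 S phase cells were 30 MYB60, 27 POLAR, 27 PDF1, 18 MUTE or EPF1, 18 SPCH and 5 FAMA cells, and 13 with none of the stage genes. Stage and cycle set thus move together here.

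SMR1 fell in S phase cells. On the 7 plates its mean level was 9.05, 9.99, 8.37, 7.89, 2.41, 3.41 and 6.12 TPM in the other cells, and 0, 0, 0.82, 0, 0, 6.68 and 0 TPM in S phase cells. It was lower in S phase cells on 6 of 7 plates and higher on TMM6. The log2 difference was -2.30 (SE 0.59, adjusted p = 0.0378), and -0.33 (SE 0.08, adjusted p = 0.00319) in the second fit. Of all genes 2.57% were called in this contrast and 0.49% were lower in both fits. The first fit lost the call without any 1 plate other than TMM6, with adjusted p-values of 0.0717 to 0.131, and without pool 1 or pool 2 (adjusted p = 0.275 and 0.375). SMR1 was in 2 of 138 S phase cells (1.45%) against 19 of 302 others (6.29%). Among cells with at least 2000 genes the difference was -1.65 (SE 0.55, adjusted p = 0.177) and no longer passed, and it was -0.37 (SE 0.1, adjusted p = 0.0253) in the second fit. The part of depth in it was not tested further.

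In mitotic cells SMR1 was listed at 0 in all 38, which allows a share of up to 7.89% (exact upper limit 9.25%). The difference of -2.70 (SE 0.63, adjusted p = 0.0088) depends on the pseudocount of 1 TPM and is no bound, and the second fit did not pass (-0.36, SE 0.15, adjusted p = 0.0831) while it called 18.7% of all genes. SMR5 was detected in 1 of 38 mitotic cells (2.63%), 16 of 138 S phase cells (11.6%) and 26 of 302 others (8.61%). Its difference in mitotic cells of -4.50 (SE 0.93, adjusted p = 0.00417) was likewise called by the first fit alone. CCS52A2 and KRP3 were also in 0 of the 38 mitotic cells.

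KRP4 rose in mitotic cells of the TMMp line. Its mean level there was 27.4, 36.7, 12.6, 33.7, 30.7 and 8.33 TPM on the 6 plates with at least 3 mitotic cells (TMM-1, TMM-2, TMM3, TMM4, TMM5 and TMM7), against 7.23, 2.19, 10.6, 4.51, 4.43 and 0.105 TPM in the other cells of the same plates. Each of the 6 plates had the higher level in mitotic cells. Its share was 42.1% in mitotic cells (16 of 38, interval 26.3 to 59.2%), 21.7% in S phase cells (30 of 138, 15.2 to 29.6%) and 8.28% in the others (25 of 302, 5.43 to 12%). In the ATML1p line, where cycle sets were not tested, KRP4 was in 1 of 10 mitotic cells (10%, mean 4.85 TPM). There it was in 7 of 22 S phase cells (31.8%, 9.32 TPM) and 16 of 111 others (14.4%, 7.63 TPM).

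The KRP4 difference in mitotic cells was 2.26 (SE 0.66, adjusted p = 0.0323), and 1.92 (SE 0.45, adjusted p = 0.00228) in the second fit, beside a median of -0.35 over all genes. In this contrast 10.4% of genes were called and 3.95% were higher in both fits. Among cells with at least 2000 genes the shares were 47.1% of mitotic, 22.2% of S phase and 11.1% of other cells, and the part of stage in this was not tested. Leaving out TMM-1, TMM-2, TMM4 or TMM5 ended the call of the first fit (adjusted p = 0.069, 0.11, 0.0684 and 0.0713), as did leaving out pool 1 or pool 2 (adjusted p = 0.208 and 0.27). In S phase cells KRP4 was higher by 1.57 (SE 0.63, adjusted p = 0.236) and by 0.68 (SE 0.26, adjusted p = 0.0486) in the second fit, which called 26.7% of all genes.

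**Figure D4:**
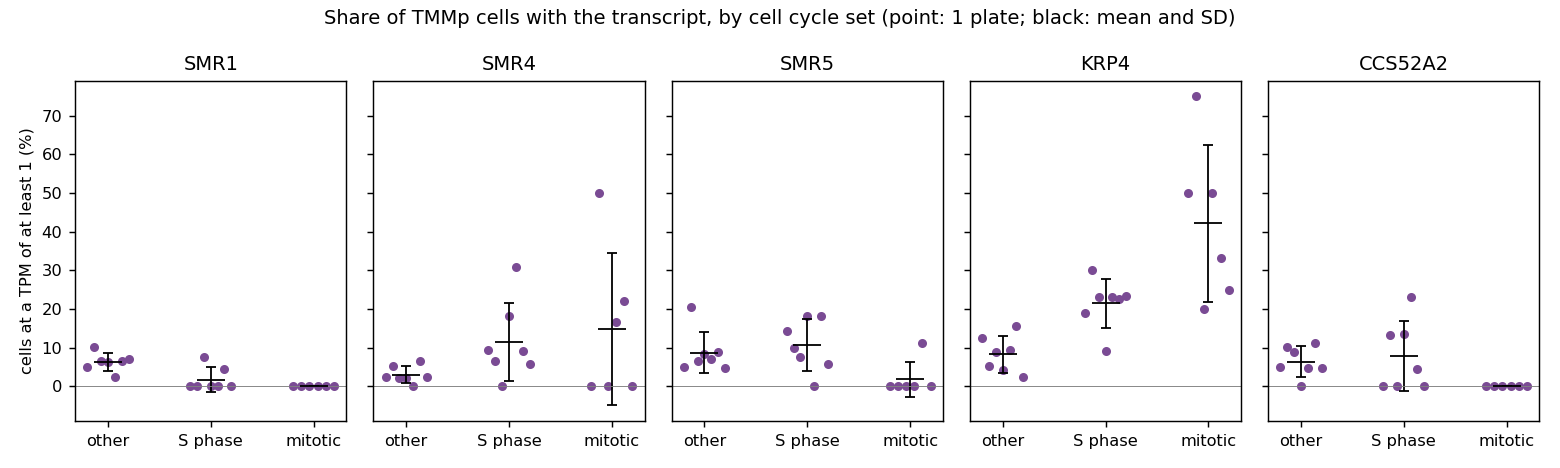
Share of TMMp cells (percent) with SMR1, SMR4, SMR5, KRP4 and CCS52A2 at a TPM of at least 1, in mitotic, S phase and other cells; each point is 1 plate with at least 3 such cells, with the mean and SD over plates in black (an SD bar can pass below 0). The mean share of KRP4 is 8.27% in other, 21.5% in S phase and 42.2% in mitotic cells, and SMR1 and CCS52A2 are at 0 on every plate in mitotic cells.

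Forward scatter, the sorter's proxy of cell size, was compared between the cells above and at or below the median of their plate. No member was called in either line or in the difference between lines, and 0 had an unadjusted p under 0.05. In TMMp cells limma called 2 of 17961 genes (0.0111%), with 1304 at an unadjusted p of 0.05, in ATML1p cells 0 of 18151 (0%, with 1419 unadjusted), and for the difference 0 of 16373 (0%, with 1691 unadjusted). Of the members, 9 could be tested in TMMp cells, 6 in ATML1p cells and 6 in the difference.

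The largest contrast among the members was KRP4 in ATML1p cells. It was detected in 18 of the 70 cells of high forward scatter (25.7%) and 6 of the 73 of low (8.22%), with mean levels of 13 ± 6.16 and 3.56 ± 2.55 TPM (SD, n = 5 plates) and the higher level in cells of high scatter on 5 of 5 plates. The log2 difference of 1.78 (SE 0.97) had an adjusted p of 0.671, and it was 0.37 (SE 0.62, adjusted p = 0.935) in TMMp cells. Cells of high scatter had more detected genes, a median of 3903 against 2677 in ATML1p cells and 3296 against 2406 in TMMp cells. In ATML1p cells 15 of the 70 cells of high scatter and 27 of the 73 of low were photosynthesis-high, and the part of either in the KRP4 values was not tested. SMR1, known for cell enlargement, was in 13 of 236 TMMp cells of high scatter (5.51%) and 8 of 242 of low (3.31%), a log2 difference of 0.47 (SE 0.78, adjusted p = 0.935).

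**Figure D5:**
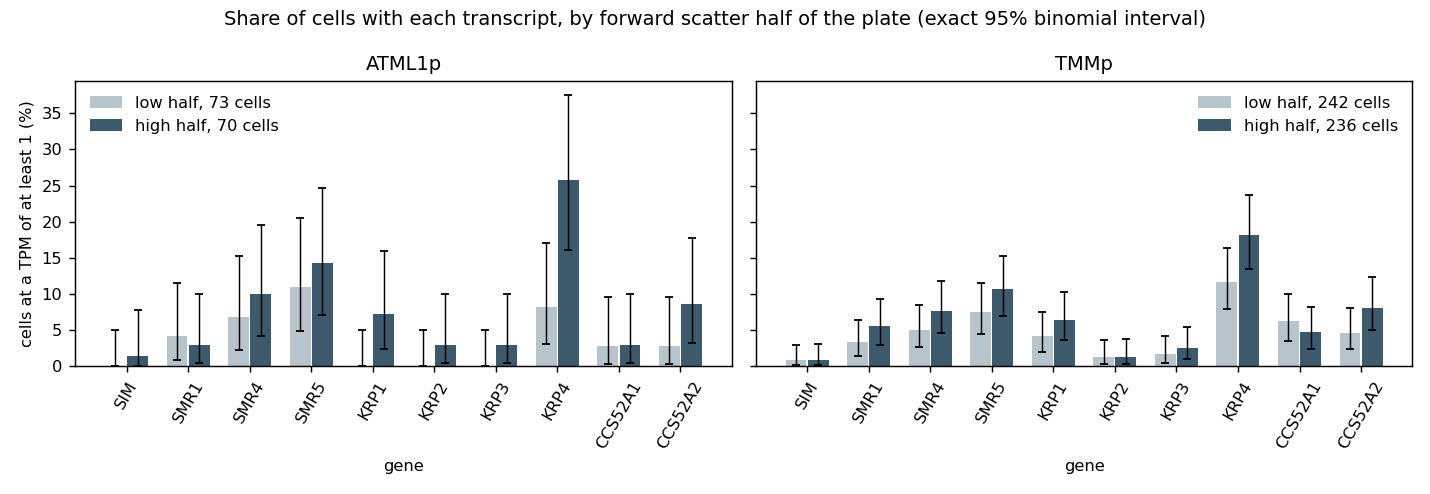
Share of cells (percent) with each of the 10 transcripts at a TPM of at least 1 in cells of low (light) and high (dark) forward scatter within their plate, for ATML1p (73 and 70 cells) and TMMp (242 and 236 cells), with exact 95% binomial intervals. KRP4 is at 8.22% in low and 25.7% in high scatter cells of ATML1p and at 11.6% and 18.2% in TMMp, and no difference passed the test.

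Some members were detected in the same TMMp cells. SMR4 and KRP4 were found together in 13 cells, against 4.46 cells from the product of their shares, SMR4 and KRP1 in 7 against 1.57, and KRP1 and KRP4 in 8 against 3.71. Cells with SMR4, KRP1, KRP4 or SMR5 each had more detected genes than cells without (for SMR5 a median of 3664 against 2685). The part of depth in joint detection was not tested, and these counts are given as a description. SMR5, the member with the highest level, and KRP4 shared 5 cells against 6.39. Over 48 class and plate means, the genes whose levels ranked most like KRP4 were AT5G50460 (Spearman 0.65), SRF8 (0.64) and the mitochondrial ADP/ATP carrier gene AAC1 (0.63). For SMR5 they were AT4G24410 (0.6), AT5G24735 (0.59) and the glutathione transferase gene GSTU6 (0.57). These means share plates and cells and carry no test.

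Of 13 further genes of the SMR and KRP families, 3 were in more TMMp cells than KRP4. AT1G10690 was in 51.3% of TMMp cells at a mean of 171 TPM and in 10.5% of ATML1p cells at 30 TPM. It was the inhibitor gene whose share differed between the lines, in a test that called 8.36% of all genes. The difference was 40 percentage points between plate means (adjusted p = 0.0256 by the permutation test, the smallest the permutations gave). The fit of levels between the lines called 0 of the 6 further inhibitors tested, and plate and line cannot be told apart. AT5G40460 was in 29.3% and KRP6 in 21.3% of TMMp cells. KRP7 was in 11.7%, KRP5 in 6.9% and AT2G28330 in 4.81%, and the other 7 were in 0 to 1.05%. In FAMA cells AT5G40460 fell by 3.30 on the log2 scale (SE 0.75, adjusted p = 0.00126) and KRP6 fell by 2.1 (SE 0.73, adjusted p = 0.0475), both called in both fits. They were 2 of the 6 further inhibitors tested there, where 2.78% of all genes were lower and 9.11% higher in both fits, and the other classes and cycle sets gave 0 calls among these 6 in both fits.

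CDKs and cyclins are the proteins that the members restrain. In SPCH cells 4 of the 12 tested of 17 rose in both fits, beside 2.78% of all genes, among them the G1 cyclins CYCD3;1 by 5.07 (SE 0.95, adjusted p = 0.000628) and CYCD3;2 by 3.13 (SE 0.68, adjusted p = 0.00321), with a median over the 12 of 0.82 against 0.06 over all genes. The others were CYCD6;1, a D-type cyclin of formative divisions, by 3.97 and the A-type cyclin CYCA2;4 by 3.43. In FAMA cells 4 of the 12 rose, beside 9.11% of all genes, CDKB1;2, CYCA2;2, CDKB1;1 and CDKA;1, the main CDK, by 4.44, 4, 3.15 and 2.64, while CYCD3;2 fell by 3.38, beside 2.78% of all genes that fell. In MYB60 cells CYCD7;1, a D-type cyclin of the last division of the lineage, rose by 3.92 (SE 0.74, adjusted p = 0.00677), where 0.0612% of all genes rose in both fits. In the class with none of the genes 0 rose and 4 fell, CDKB1;1, CYCA2;3, CDKB1;2 and CYCD3;2, beside 4.09% and 6.4% of all genes.

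Among 13 APC/C genes, of which 12 could be tested, the activators CDC20.1 and CDC20.2 rose in SPCH cells by 3.25 and 1.81. In FAMA cells CDC20.1 rose by 2.41, CCS52B, a relative of the CCS52A genes, by 3.34 and the APC/C inhibitor gene OSD1 by 2.91. In mitotic cells CDC20.1 (3.94), OSD1 (3.27) and the subunit gene CDC27B (2.71) rose, as did CDKB1;2 (4.02). CDKB1;1 was used to define the mitotic cells, and the 18 replication genes to define the S phase cells, so their differences there are no finding. In S phase cells the subunit gene APC6 rose by 4.19. The 12 genes thus gave 2 rises in SPCH, 3 in FAMA, 3 in mitotic and 1 in S phase cells, beside 2.78%, 9.11%, 3.95% and 1.97% of all genes.

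Of 22 genes of the retinoblastoma and E2F pathway and upstream regulators, all of them tested, WEE1, a kinase that inhibits CDKs, rose in SPCH cells by 3.84 and in S phase cells by 4.26, and AT1G63100 rose in SPCH cells by 2.76. The atypical E2F gene DEL1 rose in S phase cells by 3.72. RBR1, the retinoblastoma homologue, fell by 3.20 in FAMA cells. In the class with none of the stage genes MYB3R5, a repressor of mitotic genes, rose by 3.12 (SE 0.75, adjusted p = 0.0031) and WEE1 fell by 2.24 (SE 0.73, adjusted p = 0.0337). These were the calls in both fits among the 22 in that class, 1 higher and 1 lower, beside 4.09% and 6.4% of all genes. Of the 22, 2 rose in SPCH and 2 in S phase cells, beside 2.78% and 1.97% of all genes. In FAMA cells 1 fell, beside 2.78% of all genes.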

How the data were processed

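The deposited files analysed here are a table of TPM values for each reporter line, as deposited by the authors, and a table of log2 sorter values in 7 channels, per the file headers. Per the submitters' processing notes, Cell Ranger and TAIR10 were used, with no role stated. Which aligner and quantifier made the Smart-seq2 values is not given in the sources used here. TPM values summed to 999558.6 to 1000086.3 in each of the 621 cells, so read depth is unknown and the number of detected genes stands in for it. 4 10X samples were not analysed here. Gene names were matched to a TAIR10.1 annotation, which held 32548 of the 32833 identifiers; family members without a name there are printed by identifier, and no sequence or coordinate was used.

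Means of TPM were taken per pool, or per class and plate with at least 3 cells, and log2(mean TPM + 1) was fitted with limma 3.58.1 in R 4.3.3 (with the package data.table in version 1.17.8), for genes with a mean of at least 1 TPM. P-values were adjusted by Benjamini-Hochberg over all genes tested, with a threshold of 0.05. Fold changes on the log2(TPM + 1) scale understate the change of low genes. Shares of cells at a TPM of at least 1 were compared between lines by an exact permutation test over all splits of the plates, for genes in at least 2% of cells. The fits were tested on simulated data, where log2 of the mean gave false calls in small classes, so a weighted fit on the mean of log2(TPM + 1) was added after seeing the data. Named pathway genes are those called in a comparison, at most the 8 largest, and those given in the text passed both fits; alike genes are the 3 of highest Spearman correlation for members with at least 10 TPM. The members and lists were chosen with earlier results of these data known. Alternatives included pseudocounts of 0.1 and 10, a detection threshold of 5 TPM, cells with at least 2000 genes, and leaving out pools and plates.

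The labels number the pools in both lines. The difference of pool 1 and pool 2 correlated at 0.04 between the lines over 18686 genes, so the numbers were not taken to pair the pools.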

Additional observations from a re-analysis of the deposited data

Results flagged for a closer look

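Of 40 sets of plate values, 2 per member and line, 5 held a plate far from the others by Dixon's test at the 95% level, and chance alone flags about 1 in 20 sets of continuous values. That rate does not hold for values mostly at 0, since a gene seen on 1 plate alone is always flagged, as in both SIM sets here. On plate ML1 of the ATML1p line SIM was detected in 4% of cells and averaged 1.11 TPM, from 1 cell, against 0 on the other 4 plates. KRP4 was detected in 26.7% of cells on plate ML1-5, against 16% on the next and 11.8% on the lowest ATML1p plate. KRP1 was detected in 1.59% of cells on plate TMM3, against 4.62% on the next and 6.58% on the highest TMMp plate. The mean KRP1 level on plate TMM7 was 13 TPM, against 2.8 TPM on the next plate.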

How the results depend on the processing

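Each of the 7 calls of members by limma kept its sign in all 24 alternatives, but each was lost in at least 1 of them. KRP1 in SPCH cells passed in 12 of the 24, KRP4 and SMR1 in the cells with none of the stage genes in 17 and 23, SMR1 in S phase cells in 12, and KRP4, SMR5 and SMR1 in mitotic cells in 14, 16 and 15. All settings of the line and forward scatter tests gave 0 members called, although the line fit called between 0 and 2769 genes in all against 494. Over stages, 3 calls of members became 5 with a detection threshold of 5 TPM, 7 with the mean of log2 values, 9 when that mean was weighted by the number of cells, 6 when it was also limited to cells with at least 2000 genes, and 10 with weighted shares of cells. In S phase cells, 1 member called became 0 with a pseudocount of 10 or in cells with at least 2000 genes, and 2 with weights, with the weighted mean of log2 values or with weighted shares. In mitotic cells, 3 became 1 with weights, with the weighted mean of log2 values (also in cells with at least 2000 genes) and with weighted shares. These counts are no result about the members, since the share of all genes called can change with the setting. With the weighted mean of log2 values it was 48.1% in the class with none of the stage genes (11.4% in the first fit). It was 25.7% in FAMA cells (13.1%), 26.7% in S phase cells (2.57%) and 18.7% in mitotic cells (10.4%). For the other settings it is not given here. Leaving out 1 pool or 1 plate gave 1 to 4 calls over stages, 0 to 1 in S phase cells and 0 to 3 in mitotic cells. In the first fit, leaving out either pool lost all calls of members but that of SMR1 in cells with none of the stage genes (adjusted p = 0.0381 and 0.0223 by limma). In the weighted fit that call was lost without pool 1 (adjusted p = 0.107). The weighted fit kept KRP4 in the same class without pool 1 and without pool 2 (adjusted p = 0.0118 and 0.0265). Leaving a line with 1 pool assumes that it varies like the other line. The pool number as a replicate block called 0 members and 1914 genes between the lines. TPM values limit what can be said, since read depth is unknown and zeros may be failed estimates, and most members were detected in under 10% of cells.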
